A study of Sorghum bicolor with 6 samples.

Results

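A set of 69 sorghum genes was already expressed in the leaves of empty vector plants and reached high levels in the leaves of plants overexpressing SbGhd7 (SbGhd7 OE). The members were chosen by a rule on CPM, the count times 1000000 over the library total. The empty vector mean had to be 1 to under 100 CPM, the SbGhd7 OE mean 100 CPM or more and at least 8 times the empty vector mean, and every SbGhd7 OE library had to lie above every empty vector library. Of 34129 gene models, 16229 had an empty vector mean in that range, 593 of these reached 100 CPM in SbGhd7 OE, and 73 of these were at least 8 times higher. All 73 also had no overlap between the groups. SbGhd7 itself, LHY, 1 carbonic anhydrase gene and C4H also met the rule and were set aside, which left 69 genes, 0.425% of those in the empty vector range. Because the SbGhd7 OE and empty vector values chose the genes, the difference between the groups is given here as a description, with no test.

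The study compared leaf tissue of 4-week-old Sorghum bicolor plants, with 3 RNA-seq libraries from SbGhd7 OE plants and 3 from empty vector plants. The labels give no cultivar, promoter, transformation event or time of harvest, and do not state if replicates were different plants. The replicate error behind each p-value may thus be partly or wholly technical. SbGhd7, also known as Ma6, is a CCT-domain repressor of flowering in long days that acts in the leaf on the genes that activate the florigen signal. Plants that overexpress such a regulator can differ from their controls in many leaf transcripts beyond its direct targets. In whole leaf RNA, fewer cells of a type and less RNA per cell cannot be told apart.

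Library totals were 27844391 to 30836215 counts in SbGhd7 OE and 30199655 to 35830080 counts in empty vector. Genes known from the C4 leaf were abundant in all 6 libraries. PEPC (Sobic.010G160700), which fixes carbon first in C4 leaves, had 13507 to 17736 CPM in SbGhd7 OE and 3427 to 4025 CPM in empty vector. RBCS (Sobic.005G042000), the small subunit of Rubisco, had 1836 to 2139 CPM in SbGhd7 OE and 1942 to 3278 CPM in empty vector. Among the 69 genes, empty vector replicates 1 and 2 were closest to each other, with a median absolute log2 ratio of 0.14. Empty vector replicate 3 differed from them by medians of 0.54 and 0.56, and the SbGhd7 OE libraries differed from each other by 0.41 to 0.49.

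Together the 69 genes made up 2.00%, 2.34% and 2.35% of all counts in SbGhd7 OE replicates 1, 2 and 3. In empty vector replicates 1, 2 and 3 they made up 0.127%, 0.128% and 0.164%. The SbGhd7 OE mean of a member was between 100.5 and 1547 CPM with a median of 230.0 CPM, and 11 members had 500 CPM or more. The empty vector mean was between 1.22 and 61.5 CPM with a median of 14.4 CPM. The ratio of the means ran from 8.09 to 156.4 with a median of 14.5, and 59 members were at 10 or more, 28 at 16 or more and 8 at 32 or more. All 69 passed edgeR's quasi-likelihood test as higher, against 28.0% of all 20820 genes tested, and no overlap in this direction was seen in 29.9% of them. Nothing is read from these counts, since the rule used the same contrast. The median log2 fold change was 3.93 over the members and -0.0042 over all genes tested. The lowest SbGhd7 OE library was at least 4 times the highest empty vector library in 66 members and at least 8 times in 39.

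**Figure D1:**
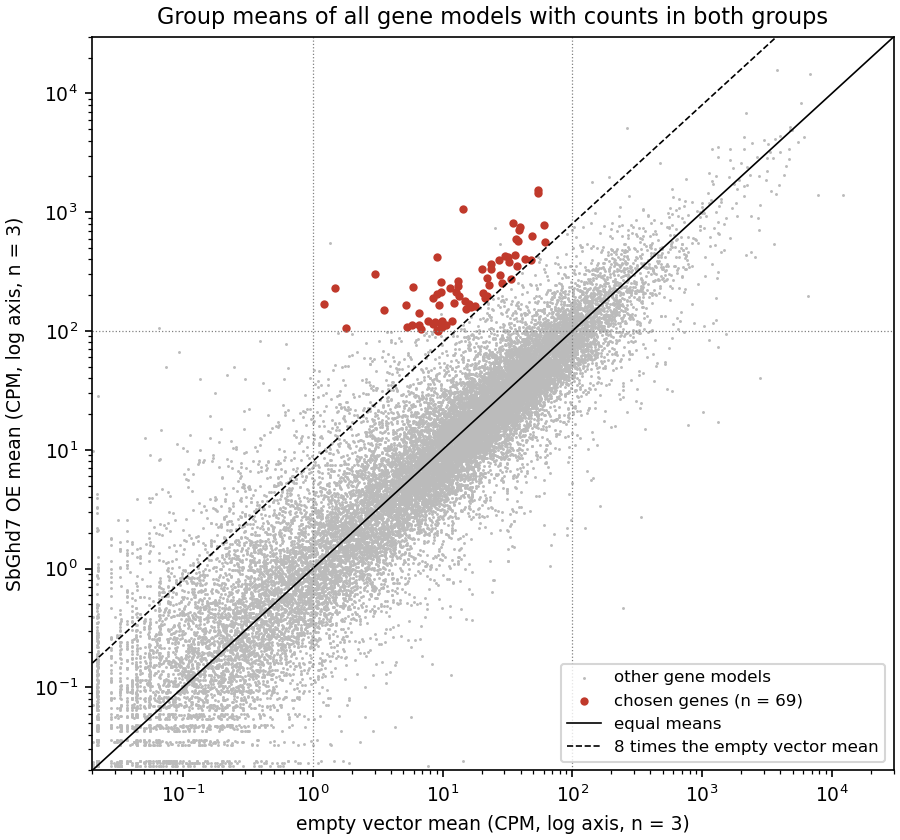
Mean of the 3 SbGhd7 OE libraries against the mean of the 3 empty vector libraries, in CPM on log axes, for every gene model with counts in both groups. The 69 chosen genes (red) lie above the dashed line of 8 times the empty vector mean, between 1.22 and 61.5 CPM in empty vector and between 100.5 and 1547 CPM in SbGhd7 OE.

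The files identify genes by number only, and no table used here pairs these numbers with names, so most members are given by identifier and without a function. CPM is not divided by gene length, so the levels below rank counts and not molecules. By SbGhd7 OE level, 3 members passed 1000 CPM. Sobic.006G007100 had 1081, 1573 and 1988 CPM in SbGhd7 OE replicates 1, 2 and 3, and 42.6, 44.1 and 76.7 CPM in empty vector replicates 1, 2 and 3. Sobic.002G047400 had 1611, 1364 and 1353 CPM in SbGhd7 OE, and 40.4, 37.3 and 86.0 CPM in empty vector. In both genes empty vector replicate 3 was the highest control, and the lowest SbGhd7 OE library was still 14.1 and 15.7 times as high as it. Sobic.005G056400 had 1054, 1256 and 856 CPM in SbGhd7 OE and only 14.7, 13.9 and 14.7 CPM in empty vector, a ratio of 73.1 between the means. The coefficient of variation of its controls was 3.32%.

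The other 7 of the 10 genes with the highest SbGhd7 OE level averaged between 569.6 and 803.4 CPM in SbGhd7 OE. Sobic.010G021800 averaged 803.4 ± 123.2 CPM in SbGhd7 OE and 35.2 ± 0.499 CPM in empty vector (SD, n = 3 each). Sobic.008G064700 averaged 774.2 ± 157.1 CPM in SbGhd7 OE and 60.7 ± 6.52 CPM in empty vector. Sobic.004G344600 and Sobic.007G153900 had near-equal control means of 39.6 and 39.0 CPM, and SbGhd7 OE means of 743.6 and 714.6 CPM. Their SbGhd7 OE libraries ran in different orders: replicate 3 was the highest for Sobic.004G344600, at 942.2 CPM, and the lowest for Sobic.007G153900, at 575.5 CPM. Sobic.008G182900 averaged 569.6 ± 114.7 CPM in SbGhd7 OE and 38.2 ± 4.55 CPM in empty vector. The remaining 2, Sobic.001G291500 and Sobic.006G005400, varied more between libraries and are described with the spread and the neighbours.

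The 3 largest ratios belonged to genes near the lower bound of the empty vector range. The rule builds this in, in part: to reach 100 CPM in SbGhd7 OE, a member with a low control mean needed a high ratio. Sobic.007G058800 had 102.5, 386.0 and 204.5 CPM in SbGhd7 OE and 1.47, 1.82 and 1.14 CPM in empty vector, a ratio of 156.4. Its empty vector counts were 45, 55 and 41, and its SbGhd7 OE counts 2955, 11902 and 5694. Sobic.003G428800 had 241.0, 178.8 and 84.1 CPM in SbGhd7 OE and 1.37, 1.16 and 1.14 CPM in empty vector, a ratio of 137.2. The order of the SbGhd7 OE libraries differed between these genes, since replicate 2 was highest in Sobic.007G058800 and replicate 1 in Sobic.003G428800. Without SbGhd7 OE replicate 2 the ratio of Sobic.007G058800 was 103.9. Sobic.009G245000 had 273.3, 437.8 and 198.8 CPM in SbGhd7 OE and 3.10, 3.31 and 2.68 CPM in empty vector, a ratio of 100.1.

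Below these 3 the ratios were closer together. The next was 73.1 in Sobic.005G056400, described above, whose empty vector mean was 14.4 CPM. Sobic.003G371000 had a ratio of 58.4, Sobic.009G246400 of 46.1, Sobic.008G191300 of 42.6, Sobic.002G116000 of 39.5 and Sobic.008G123100 of 31.4. Sobic.009G246400 was even across SbGhd7 OE, at 399.8, 454.0 and 406.9 CPM, and uneven across empty vector, at 6.45, 6.69 and 14.2 CPM. Sobic.008G123100 was uneven in both groups, at 138.6, 76.5 and 277.9 CPM in SbGhd7 OE and 5.57, 7.28 and 2.85 CPM in empty vector. Without SbGhd7 OE replicate 3 its ratio was 20.6. The 2 groups did not overlap in any of these genes, which the rule required of every member.

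**Figure D2:**
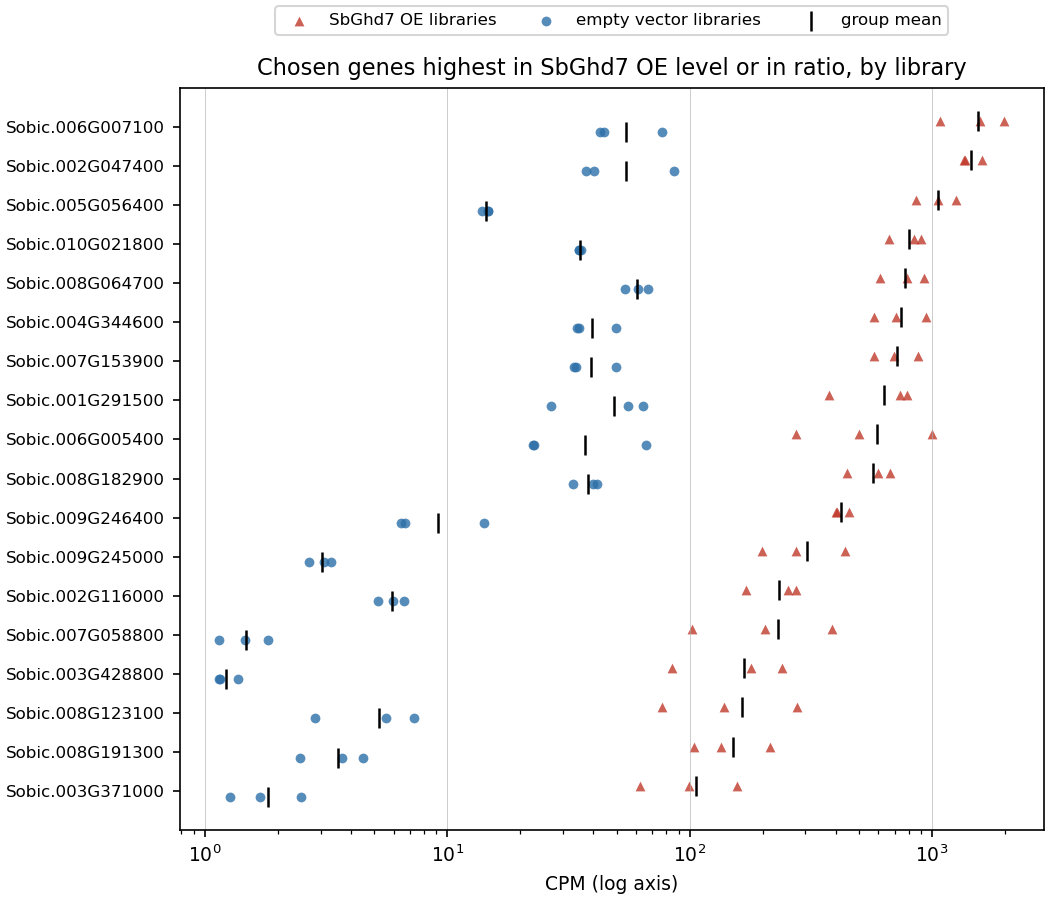
CPM of each library on a log axis for the 18 chosen genes with the highest SbGhd7 OE level or the highest ratio, with SbGhd7 OE libraries as red triangles, empty vector libraries as blue circles and group means as black bars. The controls of Sobic.007G058800, Sobic.003G428800 and Sobic.003G371000 lie between 1.14 and 2.48 CPM, while those of Sobic.006G007100 and Sobic.002G047400 lie between 37.3 and 86.0 CPM.

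The bounds on the ratio and on the SbGhd7 OE level fell in a continuous range of values, and those on the empty vector level did not. The member nearest to a ratio of 8 was Sobic.001G029600, with means of 273.1 CPM in SbGhd7 OE and 33.8 CPM in empty vector and a ratio of 8.09, followed by Sobic.003G186800 at 8.29. Just outside was Sobic.001G291600 at a ratio of 7.97. The members nearest to 100 CPM in SbGhd7 OE were Sobic.002G327900 at 100.5, Sobic.005G024800 at 101.0 and Sobic.010G273700 at 103.2 CPM, and just outside was Sobic.001G051600 at 98.4 CPM. No member came near the upper bound of the empty vector range. The highest control means were 61.5 CPM in Sobic.005G219000 and 60.7 CPM in Sobic.008G064700, and the nearest gene outside was Sobic.003G370000 at 141.2 CPM. At the lower bound the only gene outside was Sobic.003G237600, with 105.8 CPM in SbGhd7 OE and 0.0651 CPM in empty vector. With the groups exchanged, the same rule found 38 genes.

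Dhurrin biosynthesis is the pathway known by name in which a member stood, after SbGhd7, LHY, 1 carbonic anhydrase gene and C4H had been set aside. Dhurrin is the cyanogenic glucoside of sorghum, a defence compound that releases hydrogen cyanide when tissue is damaged. It is made from tyrosine by the cytochrome P450 enzymes CYP79A1 and CYP71E1 and the glucosyltransferase UGT85B1, and is cleaved by beta-glucosidases. CYP79A1 (Sobic.001G012300), the enzyme of the first step, was the member. It had 401.5, 266.8 and 615.4 CPM in SbGhd7 OE and 37.2, 35.9 and 18.0 CPM in empty vector. Its means were 427.9 ± 175.8 CPM in SbGhd7 OE and 30.4 ± 10.8 CPM in empty vector (SD, n = 3 each), with a log2 fold change of 3.89 (SE 0.412). SbGhd7 OE replicate 3 was the highest of the 6 libraries and empty vector replicate 3 the lowest.

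The next gene models on both sides of CYP79A1 were the other pathway genes, and each missed the rule by its SbGhd7 OE level. CYP71E1 (Sobic.001G012200), the second P450, had 72.6, 83.3 and 110.8 CPM in SbGhd7 OE and 11.9, 9.54 and 4.83 CPM in empty vector (log2 fold change 3.41, SE 0.335, edgeR adjusted p = 1.7e-04). UGT85B1 (Sobic.001G012400), which adds the glucose, had 41.9, 82.8 and 77.6 CPM in SbGhd7 OE and 3.45, 3.25 and 3.66 CPM in empty vector (log2 fold change 4.35, SE 0.252, edgeR adjusted p = 1.2e-05). CYP71E1 shared with CYP79A1 a low value in empty vector replicate 3, which UGT85B1 did not. Sobic.001G012500 had a log2 fold change of 2.91 (SE 0.133, edgeR adjusted p = 4.5e-06) and missed the rule with a ratio of 7.16. Sobic.001G012600 rose less, with a log2 fold change of 1.09 (SE 0.188, edgeR adjusted p = 0.0016). Of the 5 genes of this list that were not chosen, 4 rose and 1 fell, in data where 28.0% of tested genes rose and 25.3% fell. The one that fell was DHR1 (Sobic.008G080400), a dhurrin-cleaving beta-glucosidase encoded elsewhere in the genome (log2 fold change -0.41, edgeR adjusted p = 0.033). That call was lost with the replicate block (adjusted p = 0.074) and in 5 of the 7 fits with a library left out or with empty vector replicates 1 and 2 summed (adjusted p = 0.053 to 0.12).

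**Figure D3:**
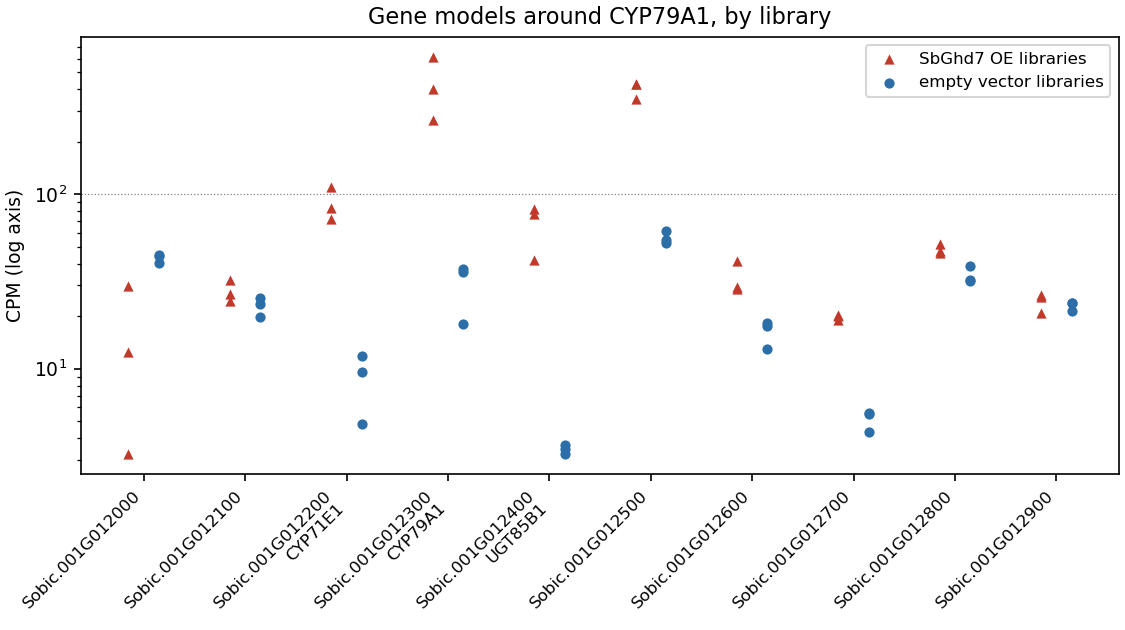
CPM of each library on a log axis for the 10 gene models numbered from Sobic.001G012000 to Sobic.001G012900, with SbGhd7 OE libraries as red triangles and empty vector libraries as blue circles. CYP79A1 lies between 266.8 and 615.4 CPM in SbGhd7 OE and between 18.0 and 37.2 CPM in empty vector, and CYP71E1 and UGT85B1 average 88.9 and 67.4 CPM in SbGhd7 OE, under the dotted line at 100 CPM.

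The other lists of known genes held none of the 69, because their genes that met the rule had been set aside. These were 1 phenylpropanoid gene (C4H), 1 C4 gene (carbonic anhydrase) and 2 flowering and clock genes (SbGhd7 and LHY). The phenylpropanoid and lignin list had 16 genes, of which 11 rose, 0 fell, 3 did not pass and 2 were not tested. Among the 9 listed for C4 photosynthesis, 5 rose, 1 fell and 3 did not pass. Among the 15 listed for flowering and the clock, 3 rose, 6 fell, 2 did not pass and 4 were not tested. Those that rose were SbGhd7 and LHY, both set aside, and the ELF3 copy Sobic.003G191700 (log2 fold change 0.497). These counts include the genes that were set aside, whose rise was required by the rule. Of all tested genes 28.0% rose and 25.3% fell, and 53.3% passed in either direction.

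Within each group the members varied more from library to library than all genes within the same level bound. The median coefficient of variation among the SbGhd7 OE libraries was 25.5% for the members and 12.7% for all 1839 genes with 100 CPM or more in SbGhd7 OE. Among the empty vector libraries it was 24.05% for the members and 10.9% for all 16229 genes in the empty vector range. The highest SbGhd7 OE library was at least 2 times the lowest in 25 members, 36.2% of the set, against 5.55% of all genes at that level. With SbGhd7 OE replicate 1, 2 or 3 left out the count was 14, 9 or 12 members (20.3%, 13.0% and 17.4%), against 3.15%, 1.41% and 3.37% of all genes at that level. These are descriptions over genes that share the same libraries, and no test was made of them. The members were chosen through their group means, which 1 library can shift, and the genes compared were not matched for ratio. How much of the spread came with this choice was not tested.

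The extremes of this spread lay far apart. Sobic.005G217900 was the most variable member in SbGhd7 OE, with 36.0, 239.2 and 87.2 CPM there and 11.6, 9.64 and 8.37 CPM in empty vector. Sobic.003G244600 followed with 68.7, 399.4 and 140.7 CPM in SbGhd7 OE and 10.6, 10.6 and 6.06 CPM in empty vector. In both genes replicate 2 was the highest SbGhd7 OE library and replicate 1 the lowest, and without replicate 2 the ratios were 6.23 and 11.6 instead of 12.2 and 22.4. Sobic.001G166401 was the least variable member, with 245.1, 255.8 and 262.2 CPM in SbGhd7 OE and 28.7, 28.6 and 28.5 CPM in empty vector. Sobic.001G046000 and Sobic.007G160200 also had SbGhd7 OE coefficients of variation under 7%, at 6.16% and 6.76%.

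No SbGhd7 OE library was highest throughout. Replicate 2 was the highest in 30 members, replicate 3 in 22 and replicate 1 in 17. Replicate 1 was the lowest in 26 members, or 37.7%, against 26.9% of all genes with 100 CPM or more in SbGhd7 OE. SbGhd7 itself had 731.5 CPM in replicate 3, 600.1 CPM in replicate 1 and 335.3 CPM in replicate 2. That order was found in 12 members (17.4%), CYP79A1 among them, and in 23.2% of all genes at that level.

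Empty vector replicate 3 departed from the other controls more often in the members than elsewhere. It was more than 2 times above or below the mean of replicates 1 and 2 in 19 members (27.5%), against 4.42% of all genes in the empty vector range. It was above in 12 members (17.4%, against 1.82%) and below in 7 (10.1%, against 2.61%). Among the 2181 genes of that range that passed edgeR with a log2 fold change over 1, the share that departed in either direction was 8.53%. The rule used the control values, replicate 3 among them, and how much of this came with the choice was not tested. No like count is given here for replicates 1 and 2. The largest excess was in Sobic.001G098600, with 509.2, 344.6 and 403.9 CPM in SbGhd7 OE and 13.0, 15.7 and 67.0 CPM in empty vector. Its ratio was 13.1 with replicate 3 of the controls and 29.2 without it. The largest deficit was in Sobic.002G327900, with 86.9, 66.6 and 148.1 CPM in SbGhd7 OE and 13.7, 11.8 and 2.04 CPM in empty vector.

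The 7 members that were low in empty vector replicate 3 were Sobic.002G327900, Sobic.010G240400, Sobic.006G061300, Sobic.002G327700, Sobic.008G123100, Sobic.001G291500 and CYP79A1. Of these 7, 5 were highest in SbGhd7 OE replicate 3 and 5 were lowest in SbGhd7 OE replicate 2. Over all 69 members these shares were 31.9% and 34.8%. Over all genes with 100 CPM or more in SbGhd7 OE they were 32.6% and 39.1%. Whether the 7 members differed from these shares was not tested. Among the 12 members that were high in empty vector replicate 3, SbGhd7 OE replicates 1, 2 and 3 were highest in 5, 5 and 2. Without empty vector replicate 3 the ratio fell under 8 in 2 members, Sobic.006G061300 (7.55) and Sobic.002G327900 (7.90). The rule applied without that library kept 67 of the 69 members and found 80 genes in all. Leaving that library out raised the ratio by over 1.5 times in 6 members: Sobic.001G098600, Sobic.001G393500, Sobic.003G104600, Sobic.005G219000, Sobic.006G005400 and Sobic.007G140900. A fall of over 1.5 times could not occur, since leaving out 1 of 3 controls lowers a ratio by 1.5 times at most.

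**Figure D4:**
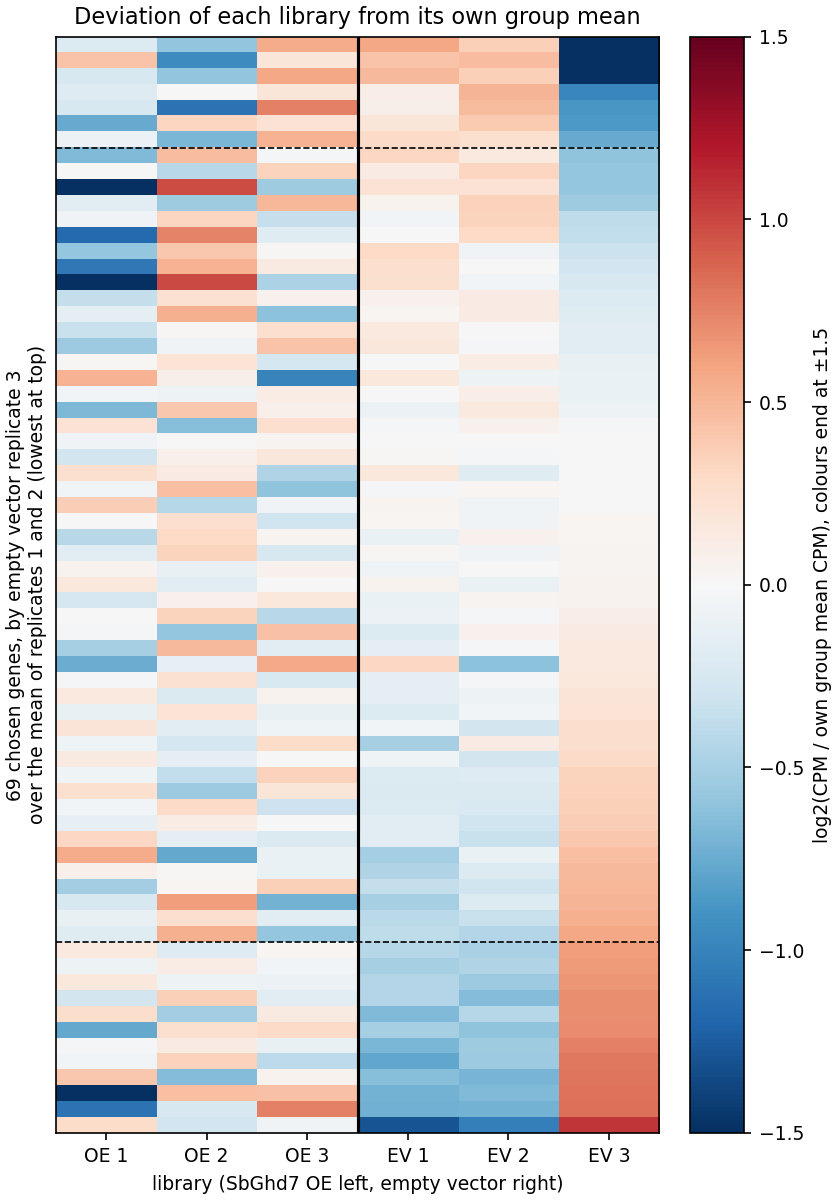
Deviation of each library from its own group mean, as log2(CPM / group mean), for the 69 chosen genes in rows, with SbGhd7 OE libraries left and empty vector libraries right. The dashed lines bound the 7 genes in which empty vector replicate 3 was under 0.5 times the mean of replicates 1 and 2 (top) and the 12 in which it was over 2 times that mean (bottom).

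The members lay on all 10 chromosomes. Chromosome 7 held 10 members, or 9.11 per 1000 genes in the empty vector range, and chromosome 4 held 4, or 2.07 per 1000. Gene models are numbered along each chromosome, mostly in steps of 100, and position was not used to choose the members. Another member stood within 1000 gene numbers of 8 members, 11.6% of the set, in 4 pairs on chromosomes 2, 6, 8 and 9.

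The gene models next to the members rose more often than others. The next model on either side was tested for 93 genes that were not themselves chosen or set aside, and of these 54 rose (58.1%) and 11 fell (11.8%) in edgeR, against 28.0% and 25.3% of all tested genes. A log2 fold change of 2 or more, a 4-fold rise, was reached by 33 of the 93 (35.5%), against 7.73% of all tested genes. Those 33 stood beside 31 of the 69 members. Within 1000 gene numbers of a member the shares were lower: of 802 tested genes 278 rose (34.7%), 101 of them at least 4-fold (12.6%). Next to the other 1541 genes that rose at least 4-fold, 40.703% of 1877 tested gene models rose and 17.2% rose at least 4-fold. The difference between the members' neighbours and these was not tested.

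Of the 33 neighbours that rose at least 4-fold, 19 had 10 CPM or more in SbGhd7 OE and 14 had less. Among the 76 neighbours with at least 1 CPM in empty vector, 39 rose (51.3%, against 26.5% of all such genes) and 18 rose at least 4-fold (23.7%, against 4.22%). Whether neighbouring models share reads, as overlapping genes or related copies, was not tested. Some neighbours just missed the rule themselves. Sobic.001G291600, beside Sobic.001G291500, had 132.1, 111.0 and 221.6 CPM in SbGhd7 OE and 22.4, 22.7 and 13.1 CPM in empty vector (log2 fold change 3.06, SE 0.324, edgeR adjusted p = 2.3e-04). Sobic.001G291500 had 375.4, 788.7 and 734.1 CPM in SbGhd7 OE and 55.5, 64.1 and 26.9 CPM in empty vector. Both were lowest among the controls in replicate 3, as were 36.2% of the members and 36.9% of all genes in the empty vector range. In SbGhd7 OE they differed, since replicate 2 was the highest for Sobic.001G291500 and the lowest for Sobic.001G291600. Sobic.002G041000, beside Sobic.002G041100, averaged 97.9 CPM in SbGhd7 OE and 8.32 CPM in empty vector (log2 fold change 3.63, SE 0.152).

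In the 4 pairs the library order of members close to each other was compared. On chromosome 2, Sobic.002G327700 had 209.4, 239.0 and 272.4 CPM in SbGhd7 OE and 13.98, 18.6 and 6.67 CPM in empty vector. Its partner Sobic.002G327900 and the model between them, Sobic.002G327800, were also highest in SbGhd7 OE replicate 3 and lowest in empty vector replicate 3. Sobic.002G327800 averaged 243.0 CPM in SbGhd7 OE and 40.8 CPM in empty vector, a ratio of 5.95 (log2 fold change 2.64, SE 0.290, edgeR adjusted p = 2.2e-04). On chromosome 8, Sobic.008G064700 was highest in SbGhd7 OE replicate 3, at 925.6 CPM, while Sobic.008G065000 was highest in replicate 1, at 215.2 CPM. On chromosome 9, Sobic.009G221900 had 96.4, 174.7 and 69.1 CPM in SbGhd7 OE, whereas Sobic.009G222200 had 219.5, 121.6 and 224.7 CPM, and their controls were 5.93, 7.25 and 11.9 CPM and 20.7, 22.2 and 20.7 CPM. The chromosome 2 pair thus shared the highest SbGhd7 OE and the lowest empty vector library, while its other libraries ran in different orders. Over all 69 members, SbGhd7 OE replicate 3 was highest in 31.9% and empty vector replicate 3 lowest in 36.2%. The library order differed in the pairs on chromosomes 8 and 9.

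The chromosome 6 pair lay in the region that follows SbGhd7 (Sobic.006G004400) in gene order. This region was looked at after its values had been seen. From SbGhd7 to Sobic.006G008400 there were 44 gene models, of which 21 were tested, 10 rose with SbGhd7 among them, 4 fell and 7 did not pass. The members Sobic.006G005400, Sobic.006G007100 and Sobic.006G007450 stood apart from SbGhd7, with 8 gene models between it and Sobic.006G005400. Sobic.006G005400 had 274.6, 498.4 and 995.7 CPM in SbGhd7 OE and 22.6, 22.8 and 66.0 CPM in empty vector. Sobic.006G007450 had 239.9, 482.7 and 498.7 CPM in SbGhd7 OE and 30.5, 28.4 and 70.8 CPM in empty vector. In all 3 members SbGhd7 OE replicate 1 was the lowest of its group and empty vector replicate 3 the highest of the controls.

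Other models near these members had that library pattern too. Sobic.006G005500 had 88.8, 284.6 and 508.5 CPM in SbGhd7 OE and 39.5, 38.4 and 76.5 CPM in empty vector (log2 fold change 2.56, SE 0.628, edgeR adjusted p = 0.014). Sobic.006G007300 had 781.0, 4227 and 2831 CPM in SbGhd7 OE and 264.9, 268.0 and 895.6 CPM in empty vector, so that the groups overlapped (log2 fold change 2.51, SE 0.740, edgeR adjusted p = 0.027). Sobic.006G007600 had 37.1, 104.5 and 88.4 CPM in SbGhd7 OE and 2.51, 4.77 and 11.3 CPM in empty vector (log2 fold change 3.68, SE 0.631, edgeR adjusted p = 0.0033). The order of the SbGhd7 OE libraries in these genes was not that of SbGhd7, whose lowest library was replicate 2. The call of Sobic.006G005500 was lost without SbGhd7 OE replicate 2 (edgeR adjusted p = 0.069). The call of Sobic.006G007300 was lost without SbGhd7 OE replicate 2 or 3 or without empty vector replicate 1 or 2 (edgeR adjusted p = 0.12, 0.070, 0.083 and 0.080), and with empty vector replicates 1 and 2 summed (0.074). The library pattern was not confined to this region. SbGhd7 OE replicate 1 was the lowest of its group and empty vector replicate 3 the highest control in 10 of the 69 members (14.5%). These 10 include the 3 members of this region. The same was seen in 117 of all 593 genes that met both level bounds (19.7%). Among the 10 was Sobic.005G219000 on chromosome 5, the member with the highest control mean. It had 157.1, 771.5 and 765.2 CPM in SbGhd7 OE and 37.7, 38.7 and 108.0 CPM in empty vector, and its lowest SbGhd7 OE library was only 1.46 times its highest control.

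**Figure D5:**
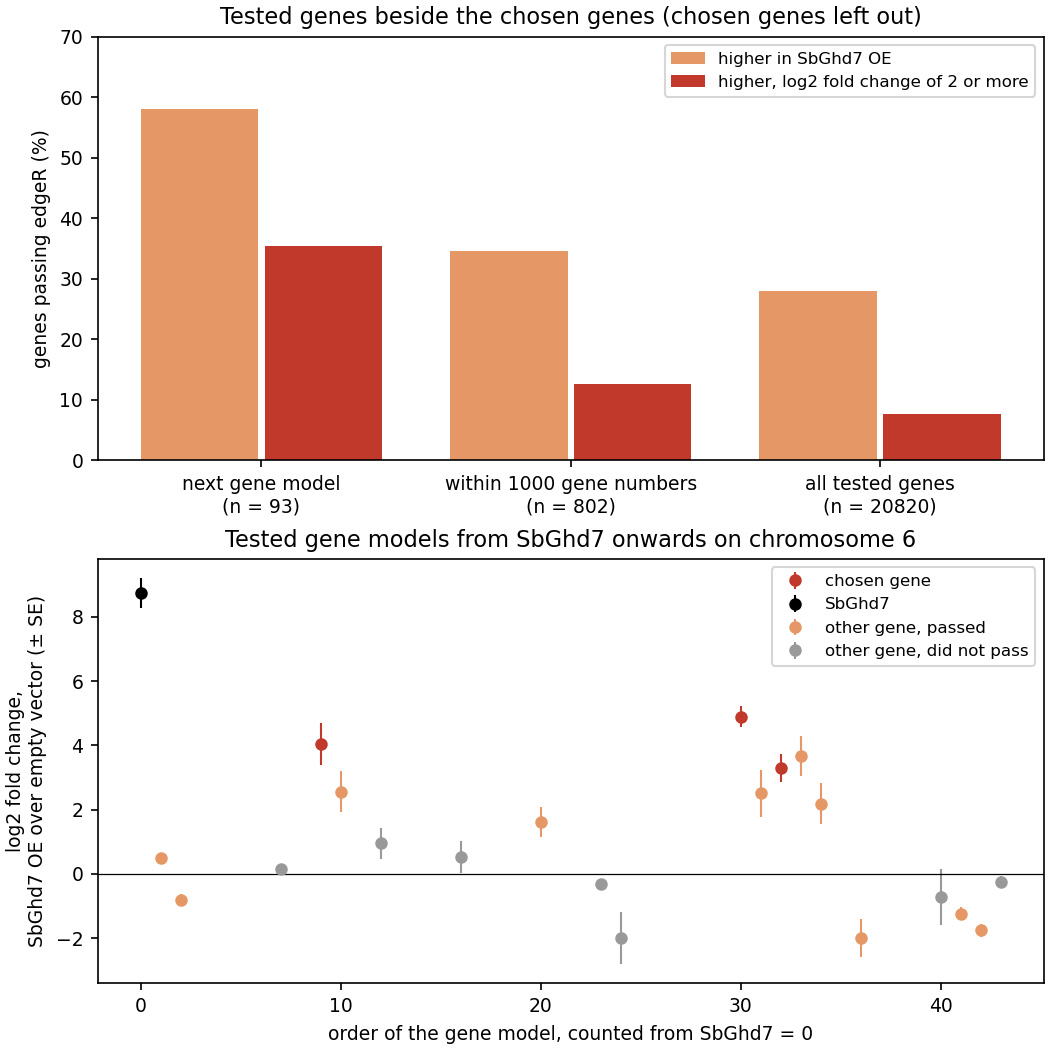
Top, percent of tested genes that rose in edgeR, and that rose with a log2 fold change of 2 or more, for the gene models next to a chosen gene (n = 93), those within 1000 gene numbers (n = 802) and all tested genes (n = 20820). Bottom, log2 fold change ± SE (SbGhd7 OE over empty vector, 3 libraries each) of the 21 tested gene models from SbGhd7 onwards on chromosome 6, in gene order; the chosen genes stand at 4.05, 4.89 and 3.30.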

How the data were processed

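The authors deposited 1 file per library, with 1 whole number per gene model and no scaling between libraries. The tools named, per the submitters' processing notes, are DESeq2 2.11.40.7, StringTie 2.2.1 and HISAT2 2.2.1, with no role for any. What build, annotation, strand option or filter was applied is not given in the sources used here. Estimated counts is the unit assumed for the deposited values: they are whole, so rounding changed none, but the value 2 was 2.91 to 3.57 times as frequent as the value 1. Related or overlapping genes may share reads.

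Groups and replicate numbers came from the sample titles. CPM was 1000000 times the count over the library total. Log2 fold changes (SbGhd7 OE over empty vector), their standard errors and adjusted p-values came from edgeR 4.0.16 in R 4.3.3: filterByExpr (20820 genes tested), TMM, the robust quasi-likelihood F-test on group alone, and Benjamini-Hochberg adjustment over all tested genes at 0.05. The standard error is the absolute log2 fold change over the square root of F. The procedure was also run on simulated data in which far fewer genes changed than edgeR called here. That run is therefore no check of the calls at the share seen in these data. DESeq2 1.42.0 was an alternative.

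The members, lists and tests were chosen with earlier results of these data known. Named members were the 10 highest in SbGhd7 OE level, the 10 highest in ratio, the 3 nearest each bound, list members, members within 1000 gene numbers of another and the 3 most and 3 least variable in SbGhd7 OE, 35 genes in all. Other members named were chosen after their values were seen. The RefSeq table used here (32945 genes) held none of the identifiers, so positions, promoters and proteins were not analysed here. Lists and markers by description could not be built, among them markers of dividing, senescing and epidermal tissue. The gene names used are published sorghum names that no table used here pairs with the identifiers.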

Additional observations from a re-analysis of the deposited data

How the results depend on the processing

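The number of chosen genes depended on the bounds of the rule. It was 69 as given, 155 at 4 times and 28 at 16 times the empty vector mean, and 125 with 50 CPM and 39 with 200 CPM as the SbGhd7 OE bound. With TMM-scaled or DESeq2-scaled totals it was 79 each, with all 69 among them. Leaving out 1 library gave between 69 and 80 genes, of which 61 to 68 were among the 69. The median log2 fold change of the members was between 3.85 and 4.05 under all alternatives run. Each of the 35 named members had 10 alternatives. Of these log2 fold changes, 349 moved by less than 1 SD between libraries and 1 by more. The latter was Sobic.001G166401, the least variable member in SbGhd7 OE, scaled by library size alone (3.15, against 3.22). Since the SD is wide for variable members, these counts do not show that their fold changes were stable. The share of next gene models that rose at least 4-fold was between 28.7% and 36.0%. The count of members with a 2-fold spread in SbGhd7 OE was 25 with 3 libraries and between 9 and 14 with 2. Without the 5 members with the highest level, the others held 1.67% of SbGhd7 OE and 0.118% of empty vector counts, against 2.23% and 0.140%. Over all genes edgeR called 11087, and between 8850 and 11513 under the alternatives. The labels do not state if same-numbered libraries were handled together. Deviations from the group means of same-numbered libraries correlated over genes at 0.00546, -0.055 and -0.105. Those of differently numbered libraries correlated at -0.0945 to 0.11. With 3 libraries in each group, these values do not show if the libraries were paired. With the replicate block edgeR called 9848 genes and the members' median was 3.96. The fits with empty vector replicates 1 and 2 summed, and the alternatives for neighbours and spread, were chosen after seeing the data. Since the files do not say what 1 count stands for, the counting error behind the ratios of members with control means near 1 CPM is unknown.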
